A study of Homo sapiens with 4 samples.

Results

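The D-type cyclins, their kinases CDK4 and CDK6, the inhibitors CDKN1B and CDKN2C, the pocket protein RB1, the transcription factor E2F1 and the E-type cyclin CCNE1 were followed in HEK293 cells, a human embryonic kidney line, by Affymetrix expression array. Cells grown in DMEM with serum were kept overnight in serum-free medium and then given lysophosphatidic acid (LPA, 1 µM for 2 h), a phospholipid of serum and a ligand of receptors that couple to G proteins. The series holds 2 arrays labelled as untreated, whose titles carry the unexplained letters Vc, and 2 arrays labelled LPA, numbered 1 and 2 in each group. The labels name no separate cultures, so every error given here reflects array-to-array spread, possibly technical only, and they do not say what the untreated cells received. Members were all probe sets to which the array annotation gives exactly 1 gene symbol among the 10 genes, which yielded 23 probe sets of 9 genes out of 41091 such probe sets. CDKN2C was not analysed here because no probe set with 1 symbol carries its name in the annotation used.

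In quiescent cells, mitogens raise D-type cyclins, which bind CDK4 or CDK6 and phosphorylate RB1. Phosphorylated RB1 releases E2F transcription factors, which then drive genes of S phase entry, among them CCNE1 and E2F1 itself, while CDKN1B restrains cyclin E with its kinase and the INK4 proteins restrain CDK4 and CDK6. HEK293 cells carry adenoviral E1A, a protein that binds RB1 and its relatives, in untreated and LPA-treated cells alike.

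The deposited values are MAS5 signals on a linear scale. All 4 arrays had the same trimmed mean of 500.1, and array medians lay between 70.3 and 76.1. LPA replicate 2 stood apart in its highest signal, 62508 against 93776 to 104012 elsewhere, and in the 3′-to-5′ ratio of the ACTB control probe sets, 18.8 against 12.6 to 13.6. The same ratio for GAPDH was 1.25 and 1.22 on the untreated arrays and 1.35 and 1.38 on the LPA arrays, so both ratios were higher on both LPA arrays; their part in the results below was not tested. Markers were read at the brightest probe set of each gene. All 6 of the HEK293 background were above the brightness filter described next, and their summed signal ranged from 34336 to 39205 in untreated cells and from 29101 to 32791 after LPA. Vimentin (VIM) carried most of this sum, with 26882 and 30202 untreated against 24351 and 19898, without overlap. The other 5 markers summed to 7454 and 9003 against 8440 and 9203, with overlap. The part of these shifts in the results was not tested. Of 11 markers of other cell types, 2 were above that filter (COL1A1 and PECAM1), and the summed signal of the 11 ranged from 1308 to 1659 and from 1130 to 1269. The 9 others, among them the leukocyte gene PTPRC and the endothelial cadherin CDH5, read between 2.43 and 73.0 at that probe set. In bulk RNA, fewer expressing cells and less RNA per cell cannot be told apart.

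LPA was compared with no treatment to ask whether the transcripts of this pathway differ after 2 h. None of the member probe sets passed the test. Differences are given as LPA minus untreated in log2(signal + 1), with limma's standard error (SE) over 2 arrays per group, for probe sets whose mean log2 signal reached the median of all probe sets on the arrays (a signal of 62.2). Of the 23 member probe sets 17 passed this filter, and they covered all 9 genes. In limma 0 of these 17 had an adjusted p under 0.05, as did 0 of 22635 probe sets tested in all (0%). An unadjusted p under 0.05 was found for 0 of the 17 and for 481 of all (2.13%). Each member had the same limma adjusted p of 0.999967. The mean difference was above 0 for 10 and below 0 for 7, with a median of 0.05 against 0.01 over all tested probe sets. Both LPA signals lay above both untreated signals for 3 member probe sets (17.6%, against 15.4% of all tested) and below them for 2 (11.8%, against 13% of all). The share of members separated by group was therefore near that of the arrays as a whole.

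**Figure D1:**
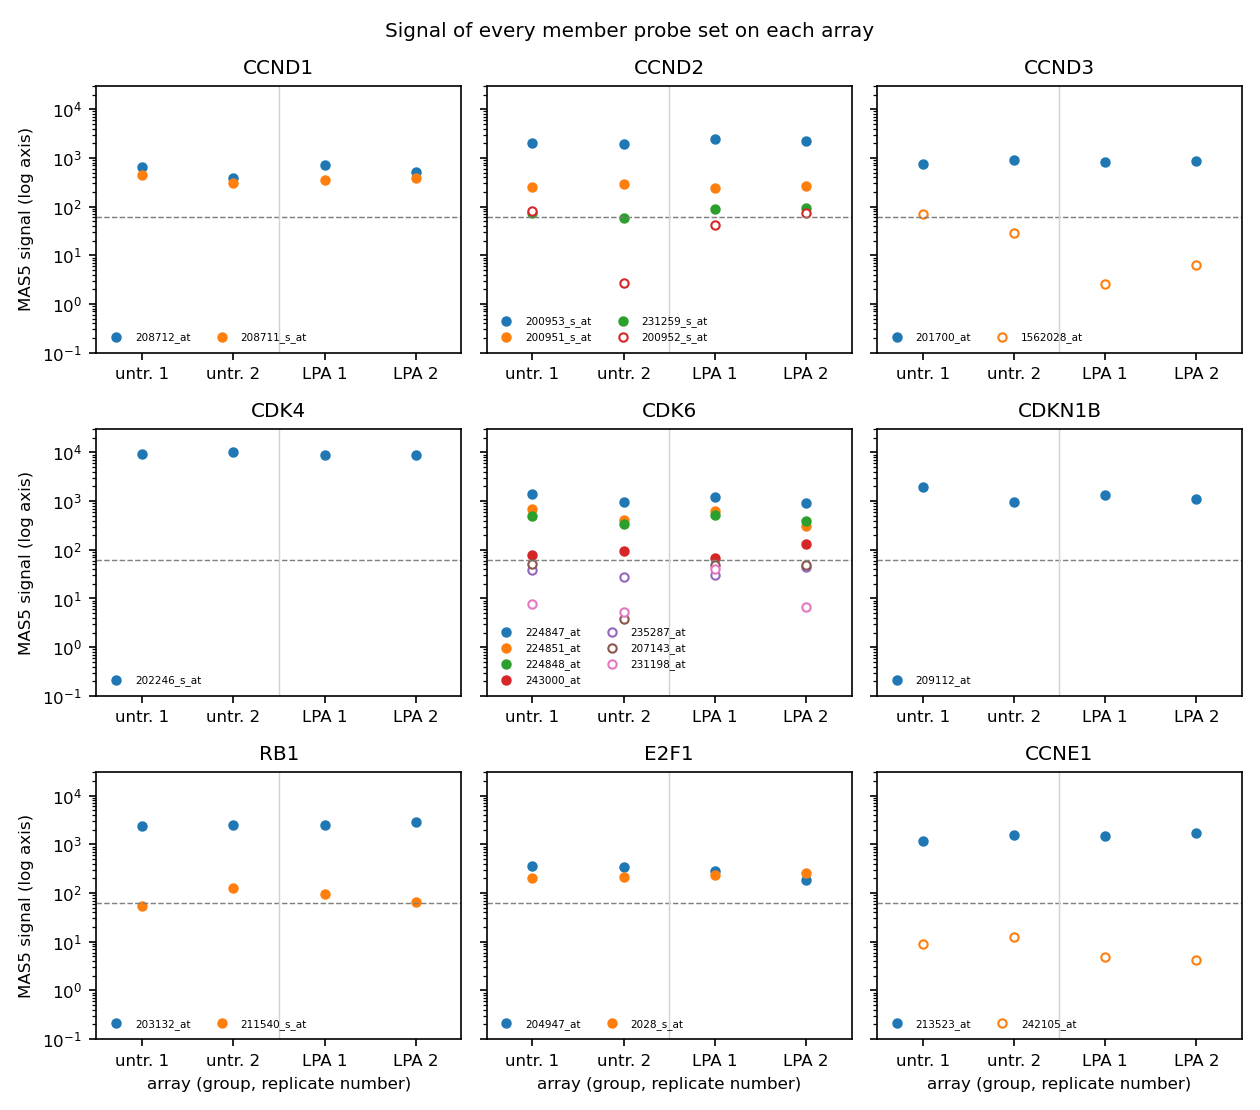
MAS5 signal (log axis) of each of the 23 member probe sets on untreated replicates 1 and 2 and LPA replicates 1 and 2, in 1 panel per gene; filled points are the 17 tested probe sets, open points the others, and the dashed line is a signal of 62.2. Each gene has at least 1 probe set above the line on all 4 arrays, while the open points of CCND2, CCND3, CDK6 and CCNE1 scatter widely and lie mostly below the line, with 2 of CCND2 and 1 of CCND3 above it.

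CCND2, a D-type cyclin, had 4 probe sets, of which 3 were tested. The brightest, 200953_s_at, read 1996 and 1894 in untreated replicates 1 and 2, and 2392 and 2235 after LPA. Both LPA signals were above both untreated signals, and the groups were further apart than the arrays within either. The log2 difference was 0.25 ± 0.17 (SE), a fold of 1.19, with a 95% interval of -0.13 to 0.63. A second probe set of CCND2, 231259_s_at, read 73.0 and 58.2 against 87.5 and 91.5, again without overlap, at signals around the filter (0.45 ± 0.47). The third tested one, 200951_s_at, went the other way with overlapping groups, 249 and 295 against 240 and 266 (-0.10 ± 0.29). The untested 200952_s_at was the least even, with 81.6 and 2.67 against 42.8 and 75.0. The CCND2 gene lies on chromosome 12 at 4273762 to 4305353 of GRCh38.p14 in RefSeq.

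CCND1, the D-type cyclin best known as a target of mitogen signalling, differed more between arrays of 1 group than between groups. Probe set 208712_at read 653 and 391 on the untreated arrays and 708 and 518 on the LPA arrays. The 2 arrays numbered 1 were the bright ones in both groups, so the groups overlapped. Its log2 difference was 0.26 ± 0.30 (95% interval -0.41 to 0.94), positive within number 1 (0.12) and within number 2 (0.41). Without untreated replicate 2 it turned to -0.11, and without untreated replicate 1 it was 0.63. The other CCND1 probe set, 208711_s_at, read 448 and 300 against 351 and 384, a difference of 0.0017 ± 0.28, with opposite signs in number 1 (-0.35) and number 2 (0.36). An interval that reaches from -0.41 to 0.94 includes both no difference and a rise of nearly 1 log2 unit, so these arrays do not show that CCND1 stayed level. CCND1 lies on chromosome 11 at 69641156 to 69654474.

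The tested probe sets of other genes whose 4 values, centred on their own mean, lay nearest to those of CCND1 208712_at were of H2AZ2, LRP6 and ITSN1, at root mean square distances of 0.0092, 0.014 and 0.016 log2 units over the 4 arrays. H2AZ2, for example, read 4954 and 2937 against 5288 and 3926. Of the tested probe sets of other genes (22635 tested in all), 199 lay within 0.1 of CCND1 208712_at. Whether this is many for 4 arrays was not tested.

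CCND3, the third D-type cyclin, was nearly level at its bright probe set 201700_at, with 763 and 899 on the untreated arrays and 837 and 881 on the LPA arrays. The LPA signals lay between the untreated ones, and the difference was 0.05 ± 0.20 (95% interval -0.41 to 0.51). A second CCND3 probe set, 1562028_at, read 69.4 and 28.2 against 2.53 and 6.18. Both LPA values were below both untreated values, but 3 of the 4 were well under the filter's signal and the probe set was not tested with the others. In the limma fit without a filter its log2 difference was -3.17 ± 1.03 with an adjusted p of 0.9998. Such low MAS5 signals are not shown to be above background. The gene spans 41934933 to 42050035 of chromosome 6.

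CDK4, a kinase partner of the D-type cyclins, was measured by 1 probe set, 202246_s_at, and had the smallest SE of the tested members. It read 9485 and 10167 on the untreated arrays and 9050 and 8757 on the LPA arrays. Both LPA signals were below both untreated ones, by a small margin. The difference of -0.14 ± 0.15 corresponds to a fold of 0.907, and its 95% interval, -0.48 to 0.20, leaves out a change of 2-fold in either direction. CDK4 lies on chromosome 12 at 57747727 to 57752310.

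CDK6, the other such kinase, had 7 probe sets, of which 4 were tested. The brightest, 224847_at, read 1403 and 943 against 1219 and 921 (-0.12 ± 0.25). Probe set 224851_at read 679 and 409 against 624 and 314 (-0.25 ± 0.37), and 224848_at read 490 and 345 against 508 and 392 (0.12 ± 0.28). In all 3 the arrays numbered 2 were dimmer than those numbered 1 in both groups (number 2 minus number 1 from -0.37 to -0.99 log2 units), and the treatment groups overlapped. The fourth, 243000_at, close to the filter, had the opposite order, with 77.7 and 94.0 against 67.9 and 132 (0.15 ± 0.49). The 3 untested CDK6 probe sets read between 3.74 and 51.0 on every array. The gene spans 92604921 to 92836573 of chromosome 7.

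CDKN1B (p27), the inhibitor that holds cyclin E with its kinase inactive in starved cells, read 1936 and 979 on the untreated arrays and 1347 and 1114 on the LPA arrays at its probe set 209112_at. Both LPA values lay between the untreated ones. The untreated arrays differed by -0.98 log2 units, replicate 2 minus replicate 1, against a group difference of -0.17 ± 0.30 (95% interval -0.84 to 0.51). Within number 1 the difference was -0.52 and within number 2 it was 0.19. The direction rested on untreated replicate 1, without which it became 0.32. Without untreated replicate 2 it was -0.66, with a limma adjusted p of 0.862. CDKN1B lies on chromosome 12 at 12717368 to 12722369.

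RB1, the pocket protein that the D-type cyclin kinases phosphorylate, read 2328 and 2516 on the untreated arrays and 2508 and 2947 on the LPA arrays at 203132_at. The lower LPA signal lay just under the higher untreated one, so the groups overlapped. The difference was 0.17 ± 0.17 (95% interval -0.22 to 0.55) and positive in both numbers (0.11 and 0.23). At 211540_s_at, near the filter, RB1 read 54.2 and 130 against 96.3 and 65.6, with differences of 0.82 in number 1 and -0.98 in number 2. The gene spans 48303751 to 48481890 of chromosome 13.

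E2F1 had the largest difference of the tested members, and its probe sets disagreed. At 204947_at it read 355 and 350 on the untreated arrays and 283 and 188 on the LPA arrays. Both LPA signals were lower, and the untreated arrays were close to each other. This gave -0.61 ± 0.30 (95% interval -1.30 to 0.08), a fold of 0.656. LPA replicate 2, the array with the high ACTB 3′-to-5′ ratio, had the lowest value, and its part in the difference was not tested. Without that array the difference was -0.31, and without LPA replicate 1 it was -0.90. At 2028_s_at E2F1 read 204 and 210 against 240 and 254, so that both LPA signals were higher and the 4 values fell into tight pairs (0.25 ± 0.30, 95% interval -0.41 to 0.92). Each probe set kept its own direction on the 2 replicate numbers and under the alternatives that could be computed for it (15 for the first and 13 for the second). With groups that do not overlap, the sign could not differ between the numbers or turn when 1 array was left out. The 2 probe sets went opposite ways, so the arrays give no single direction for E2F1. The gene lies on the minus strand of chromosome 20, at 33675477 to 33686385.

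CCNE1, the E-type cyclin that partners CDK2 and is itself a textbook E2F target, read 1152 and 1576 on the untreated arrays and 1480 and 1749 on the LPA arrays at 213523_at. Untreated replicate 2 lay above LPA replicate 1, and within each number the LPA signal was the higher (0.36 and 0.15). The difference was 0.26 ± 0.21 (95% interval -0.22 to 0.73). A second probe set, 242105_at, read 9.04 and 12.6 against 4.93 and 4.23, far below the filter, and was not tested with the others. CCNE1 lies on chromosome 19 at 29811991 to 29824312.

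**Figure D2:**
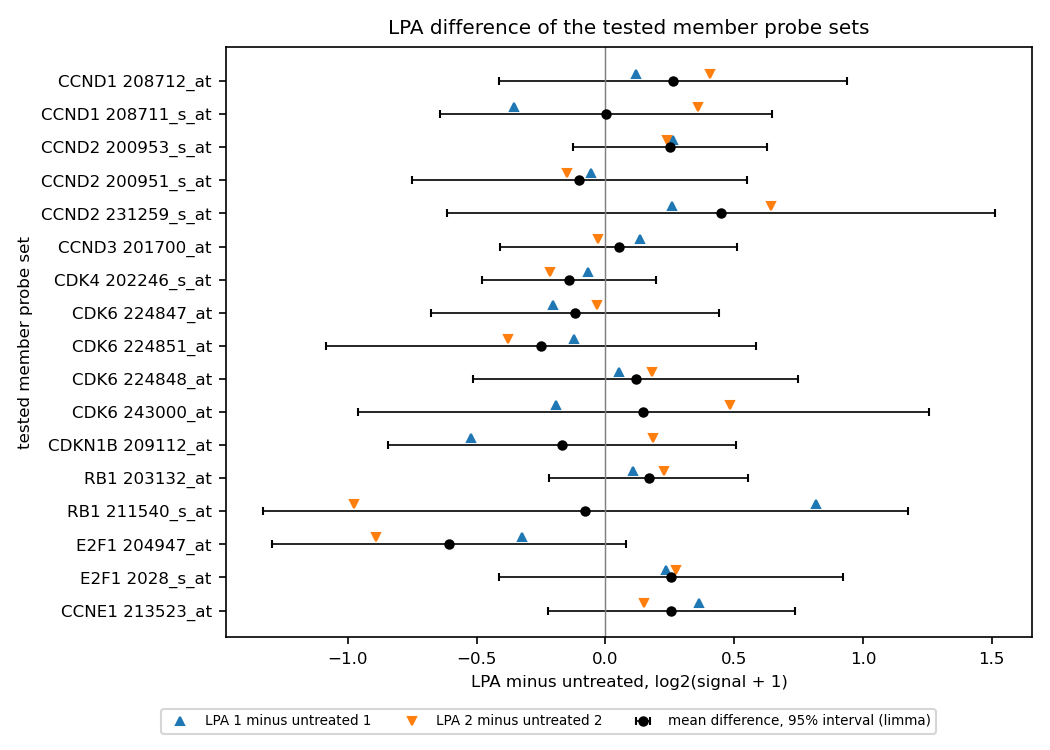
LPA minus untreated difference in log2(signal + 1) for each of the 17 tested member probe sets: black points are means with limma's 95% interval, upward triangles replicate number 1 and downward triangles number 2. Every interval includes 0. Both triangles lie on 1 side of 0 for CCND2 200953_s_at and CDK4, for example, and on both sides for CDKN1B, CCND1 208711_s_at and RB1 211540_s_at. Those of E2F1 lie below 0 for 204947_at and above 0 for 2028_s_at.

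E2F factors are known to act on the promoters of E2F1 and CCNE1, and the sequences before their start sites are shown because E2F1 had the largest difference among the tested members. RefSeq windows of the 250 bases before an annotated start (GRCh38.p14) were found for 8 of the 10 genes, 13 windows in all. CCND1 and CCND2 had none, and CCND3, CDK6 and CDKN2C had more than 1. The only RB1 window, chr13:48476200-48476449, lies inside the gene (48303751 to 48481890). The CCND3 windows, chr6:41939206-41939455, chr6:41941809-41942058 and chr6:42048689-42048938, also lie inside their gene (41934933 to 42050035). The bases before the first base of RB1 and of CCND3 were therefore not searched. All 13 windows were searched on both strands for the E2F words TTTCCCGC, TTTGGCGC, TTTCGCGC and TTTGCCGC. A word was found in 1 of the 13 windows, that of E2F1, against 2.79% of all 35116 windows. It had 2 matches, which do not overlap: TTTGCCGC on the minus strand at -33 to -26, counted from the start, and TTTGGCGC on the plus strand at -20 to -13. The windows are printed 5′ to 3′ on the gene's strand, with matches in capitals, for E2F1 at chr20:33686386-33686635 (minus strand) and for CCNE1 at chr19:29811741-29811990 (plus strand).
E2F1: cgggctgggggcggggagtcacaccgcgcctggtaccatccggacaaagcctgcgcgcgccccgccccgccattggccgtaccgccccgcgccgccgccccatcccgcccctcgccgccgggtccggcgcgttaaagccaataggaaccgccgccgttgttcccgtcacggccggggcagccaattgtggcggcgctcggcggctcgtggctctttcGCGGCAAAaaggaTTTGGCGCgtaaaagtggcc
CCNE1: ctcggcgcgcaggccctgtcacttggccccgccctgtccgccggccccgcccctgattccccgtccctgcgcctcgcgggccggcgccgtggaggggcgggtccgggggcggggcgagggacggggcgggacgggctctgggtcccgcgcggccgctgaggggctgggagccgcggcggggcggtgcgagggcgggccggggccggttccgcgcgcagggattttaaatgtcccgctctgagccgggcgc
For CCNE1 the absence of capitals says only that these 4 words are not in this window. The match in E2F1 is a description of the sequence, and the 2 E2F1 probe sets differed in opposite directions.

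More probe sets were separated by replicate number than by treatment, among the members as among all those tested. Of the 17 tested probe sets, 10 (58.8%) had both arrays numbered 2 on 1 side of both arrays numbered 1, against 47.4% of all tested probe sets. In 5 the arrays numbered 2 were lower (23.2% of all), namely CCND1 208712_at, CDKN1B and the 3 brightest of CDK6. The 5 with higher values on number 2 (24.3% of all) were CCND2 200951_s_at, CCND3, RB1 203132_at, CCNE1 and CDK6 243000_at. Separation by treatment was found in 5 of 17 (29.4%, against 28.4% of all). The group difference was smaller than the difference between the 2 untreated arrays in 11 of 17 member probe sets (64.7%, against 66.5% of all tested). What the number marks is not stated in the labels.

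**Figure D3:**
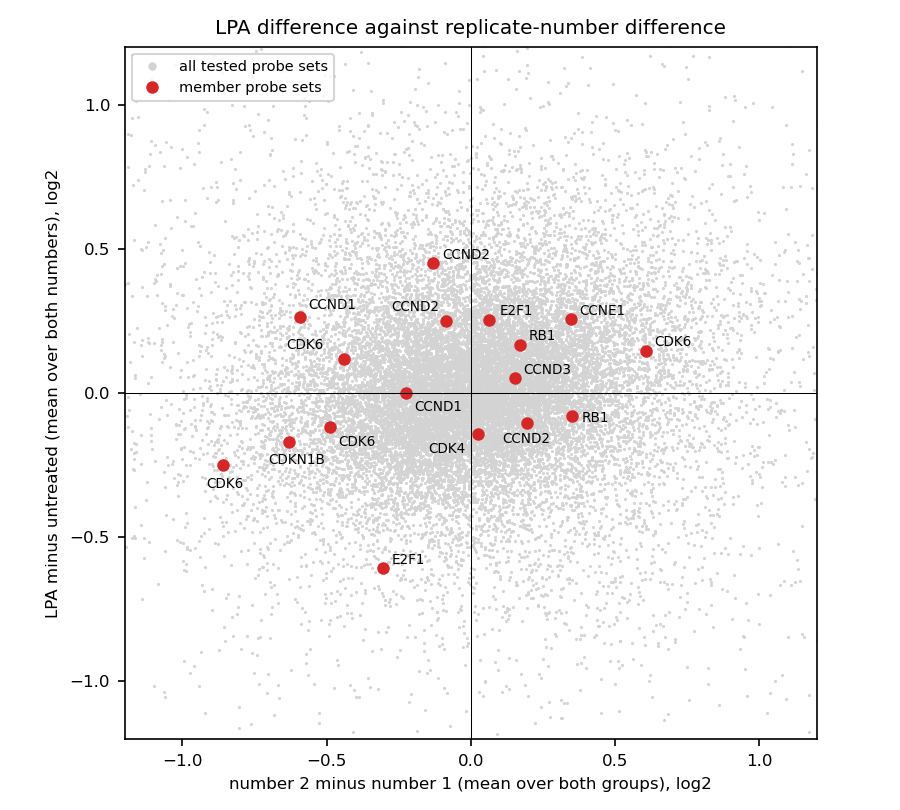
LPA minus untreated (y axis) against replicate number 2 minus number 1 (x axis), both as mean log2 differences over 2 pairs of arrays; red points are the 17 tested member probe sets and grey points all 22635 tested probe sets, some of which lie outside the axes. The 3 brightest CDK6 probe sets, CDKN1B and CCND1 208712_at lie at the left, between -0.25 and 0.26 on the y axis, and E2F1 204947_at lies lowest.

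The rest of the pathway gave a similar picture. Of 28 further genes of the passage from G1 to S phase, all were tested at their brightest probe set. In limma 0 passed over all probe sets tested (0% of the brightest probe sets of 12205 genes), with an unadjusted p under 0.05 for 0 of 28 and 235 of 12205. Means were above 0 for 14 and below 0 for 14, and the median was -0.01 against 0.01 over all genes tested. Both LPA signals were above both untreated signals for 5 of the 28 (14.4% of all genes) and below for 5 (12.7%).

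The genes of this list with the smallest p included both INK4 inhibitors of the CDKN2 locus, which restrain CDK4 and CDK6. CDKN2B read 166 and 191 against 91.5 and 120 (-0.76 ± 0.38), and CDKN2A read 8265 and 8006 against 7352 and 6599 (-0.22 ± 0.15), each without overlap. A second CDKN2A probe set, 207039_at, read 4432 and 4172 against 3472 and 3533 (-0.30 ± 0.15), also without overlap. The untested CDKN2B probe set 207530_s_at, below the filter, read 8.29 and 44.2 against 14.7 and 4.49, with overlap. CDKN2D, another INK4 gene of the list, differed by -0.13 ± 0.43 at its brightest probe set, and its groups overlapped. SKP2, which marks CDKN1B for degradation, read 12270 and 10628 against 9853 and 9018 (-0.28 ± 0.16), while a second probe set of it, 210567_s_at, differed by -0.04 ± 0.17 and another near the filter, 203626_s_at, by 0.52 ± 0.50.

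RBL2 (p130), the RB1 relative typical of quiescent cells, read 1629 and 1622 against 1980 and 1958 (0.28 ± 0.17). Its dimmer probe set, 212332_at, went the other way at signals of 80.0 to 98.8 (-0.22 ± 0.43). E2F7, a repressor of the E2F family, read 1690 and 1768 against 2018 and 2228 (0.30 ± 0.17). Neither passed the threshold, with a limma adjusted p of 0.999967 for both.

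Targets of E2F that serve S phase entry gave small mean differences. Of 20 genes 19 were tested, 0 passed in limma with 0 at an unadjusted p under 0.05, 12 had a mean above 0 and 7 below, and the median was 0.02. The groups did not overlap for 1 in each direction, against 14.4% of all genes higher and 12.7% lower. CDT1, which loads the replicative helicase, read 3387 and 3316 against 3874 and 4307 (0.29 ± 0.16), and its second probe set, 209832_s_at, differed by 0.30 ± 0.30 with overlapping groups. Thymidine kinase TK1 read 1639 and 1492 against 1315 and 1283 (-0.27 ± 0.18), but its other probe set, 1554408_a_at, differed by 0.03 ± 0.19. The helicase subunits MCM7 (-0.18 ± 0.18) and MCM4 (0.14 ± 0.16) and thymidylate synthase TYMS (-0.20 ± 0.25) had overlapping groups at their brightest probe sets. A dimmer MCM4 probe set, 222037_at, read 2257 and 2351 against 2401 and 3242, without overlap (0.28 ± 0.19). The other tested ones of MCM4, 212141_at (0.10 ± 0.16) and 212142_at (-0.05 ± 0.27), had overlapping groups. No gene of this list differed by more than 0.29 in either direction at its brightest tested probe set.

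**Figure D4:**
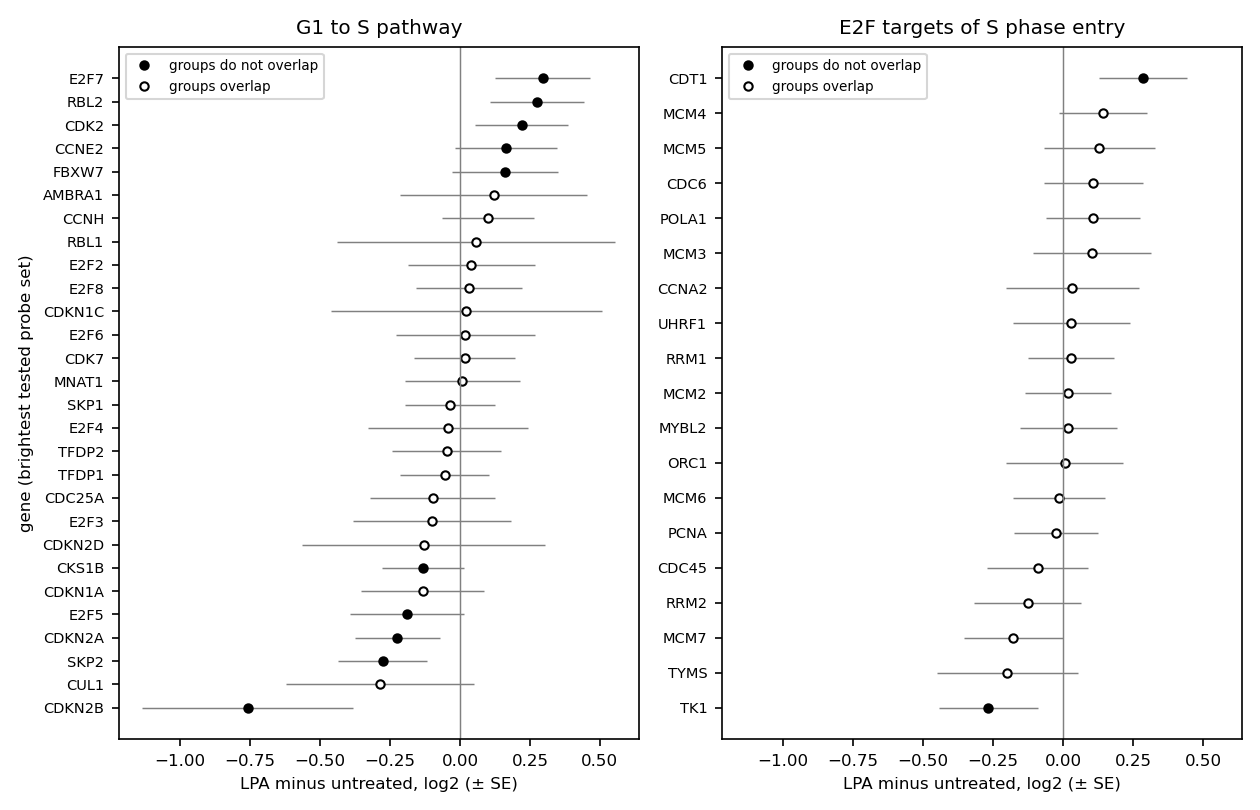
LPA minus untreated log2 difference with its SE (limma, 2 arrays per group) at the brightest tested probe set of each of 28 further G1 to S genes (left) and 19 E2F targets of S phase entry (right); filled points mark groups without overlap. Points lie on both sides of 0 in each list, CDKN2B lies farthest from it at -0.76, and none passed the threshold over all probe sets tested.

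How far each member's difference depends on single arrays is shown by leaving out 1 array at a time. For 7 of the 17 tested probe sets the sign was the same under each alternative computed: CCND2 200953_s_at and 231259_s_at, CDK4, RB1 203132_at, both of E2F1, and CCNE1. Those of CCND2, CDK4 and E2F1 had groups without overlap, so leaving out 1 array could not change their sign. The settings for filter, trend, 1 probe set per gene and block alone leave the difference itself unchanged. For these settings a kept sign is therefore no support. For CCND2 200953_s_at the difference stayed between 0.20 and 0.30, for CDK4 between -0.19 and -0.06, and for E2F1 2028_s_at between 0.19 and 0.30. Keeping the sign did not mean keeping the size. CCNE1 was at 0.03 when untreated replicate 1 was left out, at 0.14 for LPA replicate 2 and at 0.48 for untreated replicate 2. RB1 203132_at was 0.05 without LPA replicate 2 and 0.28 without LPA replicate 1. CCND2 231259_s_at ranged from 0.29 to 0.61 with 1 array left out, and E2F1 204947_at from -0.90 to -0.31. The other 10, which include both probe sets of CCND1, all 4 of CDK6 and that of CDKN1B, changed sign at least once.

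**Figure D5:**
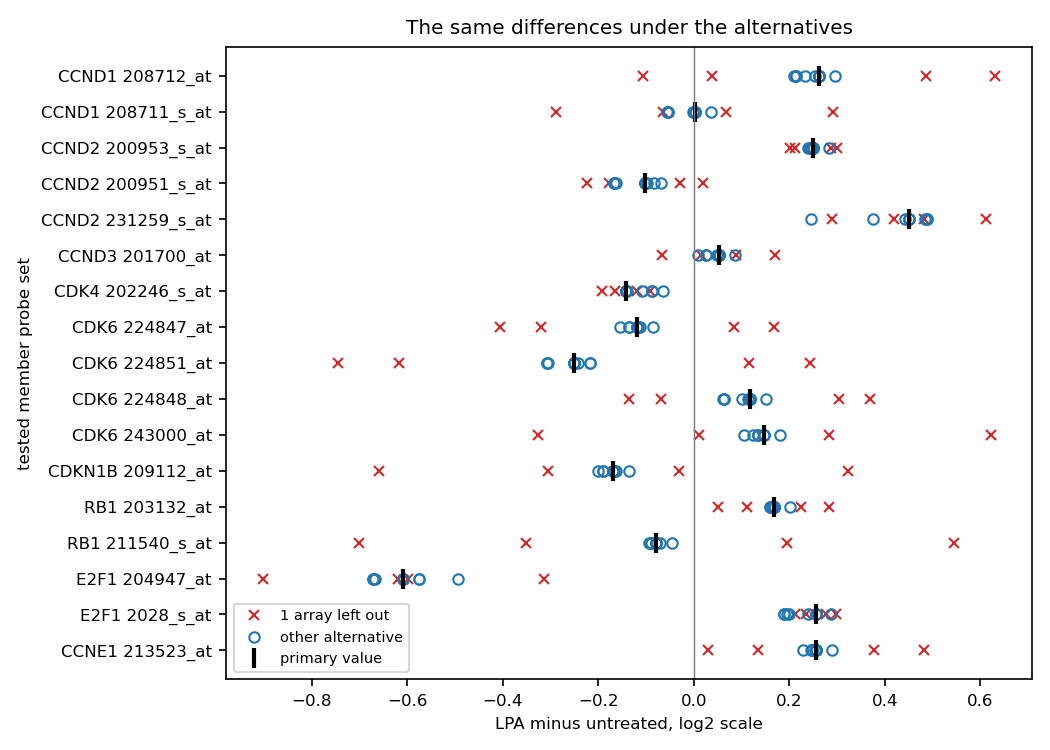
LPA minus untreated log2 difference of the 17 tested member probe sets as reported (black bar), with 1 array left out (crosses) and under the other processing alternatives (open circles). Crosses spread from -0.75 to 0.24 for CDK6 224851_at and from -0.66 to 0.32 for CDKN1B, while for CCND2 231259_s_at and CDK4 the point farthest towards 0 is a circle (0.25 with a pseudocount of 64 and -0.06 under cyclic loess).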

How the data were processed

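RNA of HEK293 cells was measured on 4 arrays, 2 untreated and 2 LPA. The authors deposited linear MAS5 intensity values, with the tool named in the submitters' processing notes. Its version and settings are not given in the sources consulted, and detection calls were not used. Of 54675 probe sets, 41097 had 1 gene symbol in the array annotation, of which 6 array controls were left out. Values were taken as log2(signal + 1), which shrinks differences of the dimmest probe sets somewhat. Dim probe sets could still differ widely: without a filter, CCND3 1562028_at differed by -3.17 ± 1.03 and CCND2 200952_s_at by 1.73 ± 1.39. No further normalization was applied. Probe sets with a mean log2 signal at or above the 50th percentile were fitted with limma 3.58.1 in R 4.3.3 (lmFit, eBayes with intensity trend, two-sided, group as the only term), with Benjamini-Hochberg adjustment over all 22635. The fit was tested on simulated data. The 95% intervals use limma's moderated SE, whose median was 0.277 over all tested probe sets and whose precision is limited by the number of arrays.

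The members and the gene lists were chosen with earlier results of these data known. The text names every member, the 5 genes of each pathway list with the smallest p at their brightest tested probe set, and the 3 probe sets nearest to CCND1. Other probe sets of named list genes were looked at after their values were seen. Alternatives were quantile, cyclic loess and median scaling, pseudocounts of 16 and 64, no filter and one at the 70th percentile, no intensity trend, 1 probe set per gene, each array left out, and the replicate number as a block.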

Additional observations from a re-analysis of the deposited data

How the results depend on the processing

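No member probe set and no gene of the 2 pathway lists passed the threshold under any of the 15 alternatives. Over all tested probe sets the count of 0 became 23 with the replicate number as a block and 8 with that block and quantile normalization, and 0 to 5 when 1 array was left out (5 and 2 without untreated replicates 1 and 2, and 1 without LPA replicate 1). The labels do not say that the number pairs the arrays; deviations from the group means correlated at r = 0.249 between arrays of the same number, across probe sets, which are not independent. With the block the smallest limma adjusted p of a member was 0.645, and with quantile normalization added 0.544, both for E2F1 204947_at. Member probe sets without overlap between groups numbered 5. After median centring they numbered 8 (6 higher and 2 lower after LPA, 28.5% of all tested). Under cyclic loess 3 were higher and 1 was lower (27.7% of all). Without a filter 3 of 23 were higher and 4 lower (30.9% of all). The count was 3 of 13 with a filter at the 70th percentile (26.7% of all) and 3 of 9 with 1 probe set per gene (27.1% of all). It was 9 to 13 with 1 array left out (57.8% to 68.5% of all).

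The sign changed for 10 of the 17 member probe sets, the cause of which was not tested. CCND1 208711_s_at, at 0.0017, became -0.053 under quantile normalization (also with the block), -0.056 under cyclic loess, -0.0020 with a pseudocount of 64, and ranged from -0.29 to 0.29 with 1 array left out. In the same way the others ranged from -0.11 to 0.63 (CCND1 208712_at), -0.22 to 0.019 (CCND2 200951_s_at), -0.066 to 0.17 (CCND3 201700_at), -0.41 to 0.17 (CDK6 224847_at), -0.13 to 0.37 (CDK6 224848_at), -0.75 to 0.24 (CDK6 224851_at), -0.33 to 0.62 (CDK6 243000_at), -0.66 to 0.32 (CDKN1B 209112_at) and -0.70 to 0.55 (RB1 211540_s_at). Signals under 62.2 are not shown to be above background, which limits the dim probe sets of CCND2, CCND3, CDK6, RB1 and CCNE1.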
